A study of Homo sapiens with 17 samples.

Results

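IER2, IER3 and IER5 are 3 of the 19867 genes in a table of newly made RNA from the cell line SNU-761, which was established from a human liver carcinoma. They were chosen as named genes with earlier results of these data known: IER3 because it had the most T>C counts in the DMSO libraries, and all of them for their share of counts and their change with both agents over the 15 labelled libraries. Their levels and fold changes in those libraries are therefore a description, given with no p-value. Calls of these genes from the fits are a description too. In SLAM-seq the cells take up thiouridine, and a read with T>C conversions is counted as newly made RNA. The VT107 experiment held cells treated for 4 h with VT107, a small-molecule inhibitor of all TEAD transcription factors, at 2.15 µM or at 0.1 µM, and cells given DMSO, with 2 libraries per group. The intetumumab experiment held cells treated for 4 h with a biosimilar of intetumumab, an antibody against integrins with the ITGAV chain, at 5 µg/ml or at 1.5 µg/ml, and, as controls, cells given 5 µg/ml of an isotype IgG1 (3 libraries in each group). The genotype of all cells is given as WT, and each experiment also had 1 library of untreated cells that received no thiouridine. All libraries come from 1 cell line, and nothing in the labels says that replicates were separate cultures.

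Immediate early genes are transcribed within minutes of a growth factor, an adhesion signal or stress, without new protein being made first, and many of their mRNAs decay fast. Newly made RNA is therefore a direct readout of them. IER3, also known as IEX-1, is a small stress-inducible protein, a substrate of ERK, that affects cell survival, and its gene is a known target of NF-kB. IER2 and IER5 are nuclear proteins that share a conserved N-terminal region, to which IER3 is not related. IER2 has been linked to cell migration, and IER5 binds the phosphatase PP2A and promotes the dephosphorylation of the heat shock factor HSF1.

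In RefSeq's annotation of build GRCh38.p14, IER2 is a protein-coding gene at chr19:13150411-13154911, IER3 one at chr6:30743199-30744547 and IER5 one at chr1:181088700-181092900. The table gives them as ENSG00000160888, ENSG00000137331 and ENSG00000162783. The pairing of these IDs with symbols came with the choice of genes and was not checked, since 0 genes of the reference table carry an Ensembl ID. IER3 overlaps 1 annotated gene, IER3-AS1, and IER2 and IER5 overlap 0. Whether reads were counted by strand is not given in the sources used here, and whether IER3-AS1 reads entered the IER3 counts was not tested.

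The promoters of IER2 and IER5 are shown because these related genes differed in how their levels compared with the controls. Each runs from 250 bases before to 50 bases after the annotated start, on the plus strand, from RefSeq on GRCh38.p14, at chr19:13150161-13150460 for IER2 and chr1:181088450-181088749 for IER5. The IER3 promoter is not shown. Capitals mark motif matches on either strand.
IER2 promoter: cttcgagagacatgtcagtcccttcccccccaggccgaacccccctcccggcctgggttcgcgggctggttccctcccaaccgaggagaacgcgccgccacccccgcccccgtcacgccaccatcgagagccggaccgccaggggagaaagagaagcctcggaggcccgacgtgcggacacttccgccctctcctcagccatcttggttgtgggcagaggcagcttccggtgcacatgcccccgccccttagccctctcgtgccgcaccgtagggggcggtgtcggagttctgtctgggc
IER5 promoter: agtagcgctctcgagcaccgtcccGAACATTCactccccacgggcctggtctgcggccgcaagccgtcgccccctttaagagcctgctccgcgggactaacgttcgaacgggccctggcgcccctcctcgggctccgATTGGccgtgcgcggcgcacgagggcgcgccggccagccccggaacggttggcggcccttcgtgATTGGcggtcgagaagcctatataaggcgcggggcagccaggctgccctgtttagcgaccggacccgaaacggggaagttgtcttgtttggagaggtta
The IER2 window held 0 matches to any motif searched. These were the TEAD motif GGAATG, the AP-1 motif TGANTCA, the cyclic AMP element TGACGTCA, the TATA box TATAAA, the E-box CACGTG, the NF-kB site and the CArG box bound by SRF, with the heat shock element GAANNTTC and the CCAAT box added after the sequences were seen. The IER5 window held GAACATTC, 226 bases before the start, which matches the pattern GAANNTTC on either strand. It also held 2 reverse-strand CCAAT boxes, printed as ATTGG, that begin 113 and 49 bases before the start. Among 35116 annotated promoters of this length, 6.77% held GAANNTTC, 34.6% CCAAT, 14.03% GGAATG, 7.71% TGANTCA, 1.85% TGACGTCA, 11.5% TATAAA, 7.26% CACGTG, 11.3% the NF-kB site and 1.29% the CArG box. Neither window held GGAATG, which says only that these letters are not within it. The TATA box search took TATAAA only, so the stretch tatataag in the IER5 window was not counted.

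The labelled libraries held 435343 to 1778876 T>C counts. IER3 had 1546 to 32643 counts per library, IER2 302 to 2002 and IER5 113 to 355, so counting noise was smallest for IER3 and largest for IER5. Levels are given as counts per 1e6 T>C counts of the library. These depend on the T content of the counted stretch as well as on RNA made, so they are compared between libraries and not between genes. The 4 h of treatment and the labelling time give new RNA only, and a change in synthesis cannot be told apart from a change in decay during labelling. In bulk libraries, fewer cells making a transcript and less of it per cell cannot be told apart either. The labelled cell type could not be checked, because the marker genes have no names in the table.

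IER3 was the gene with the most T>C counts in all 6 labelled libraries of the VT107 experiment, and its level was lower at both doses than in DMSO. It stood at 9480 and 10783 counts per 1e6 at 2.15 µM, at 16892 and 14675 at 0.1 µM and at 26708 and 29594 in DMSO. The 3 groups did not overlap, and the higher dose had the lowest level. As a share of all T>C counts, IER3 made up 1.01% ± 0.0922 at 2.15 µM, 1.58% ± 0.157 at 0.1 µM and 2.82% ± 0.204 in DMSO (SD, n = 2 each). The gene next below it in the DMSO libraries, ENSG00000124225, had 11867 counts there in all, against 59393 for IER3. On the scale of edgeR's fit over all genes with TMM scaling, IER3 had a log2 fold change of -1.63 (SE 0.11) at 2.15 µM and of -0.94 (SE 0.11) at 0.1 µM against DMSO. Between 2.15 and 0.1 µM it was -0.69 (SE 0.11). The fold changes at both doses are taken against 1 pair of DMSO libraries and are not independent.

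IER2 was also lower at both VT107 doses than in DMSO. It stood at 696 and 635 counts per 1e6 at 2.15 µM, at 931 and 656 at 0.1 µM and at 1900 and 1815 in DMSO. Every treated library lay below both DMSO libraries, and the 2 doses overlapped, with the replicates at 0.1 µM far apart. The log2 fold change was -1.63 (SE 0.20) at 2.15 µM and -1.33 (SE 0.20) at 0.1 µM. Between 2.15 and 0.1 µM it was -0.30 (SE 0.20), and -0.0072 without replicate 1 of the 0.1 µM group. By rank among the 19867 genes, IER2 was number 177 at 2.15 µM, 133 at 0.1 µM and 37 in DMSO by summed count.

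IER5 did not lie below DMSO in this way. It stood at 199.6 and 173 counts per 1e6 at 2.15 µM, at 239.9 and 226 at 0.1 µM and at 159.7 and 203 in DMSO. The 2.15 µM and DMSO libraries overlapped, and both 0.1 µM libraries lay above both DMSO libraries. The log2 fold change was -0.11 (SE 0.24) at 2.15 µM with TMM and 0.04 with total count scaling, so its sign turned with the scaling. It was also 0.064 without DMSO replicate 2. At 0.1 µM it was 0.25 (SE 0.24) with TMM, 0.36 with total count scaling and 0.094 without DMSO replicate 1. The 2 DMSO libraries differed by more for IER5 (coefficient of variation 16.9%, against 7.22% from counting alone) than the mean difference between 2.15 µM and DMSO.

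**Figure D1:**
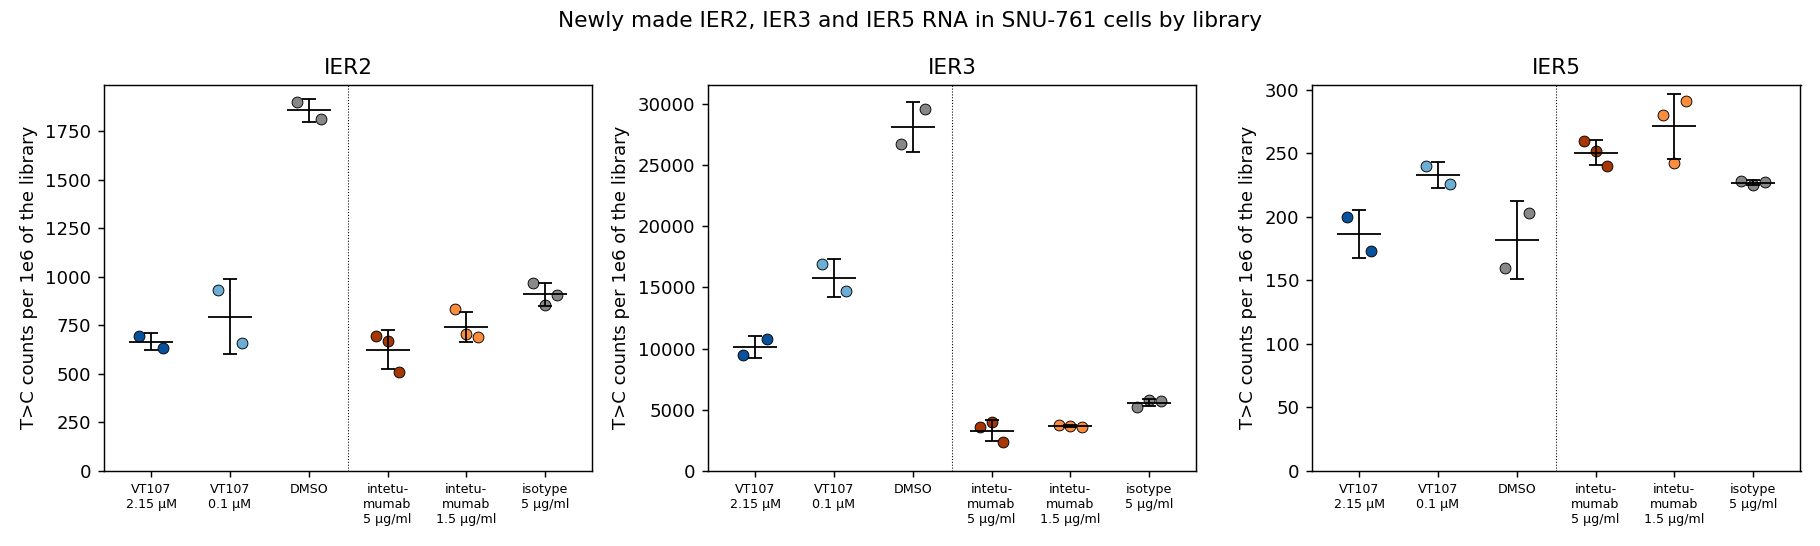
T>C counts per 1e6 counts of the library (vertical axes, linear from 0) for IER2, IER3 and IER5 in the 15 labelled libraries, by treatment. Points are libraries, and bars are the group mean and SD (n = 2 left of the dotted line, n = 3 right of it). IER3 lay at 9480 to 16892 with VT107, against 26708 and 29594 in DMSO, while the IER5 libraries at 2.15 µM and in DMSO overlapped.

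At 2.15 µM against DMSO, edgeR's fit called 2 of the 3 genes, IER2 and IER3, both lower (adjusted p under 0.05 after Benjamini-Hochberg over 10083 genes), where 0.109% of the genes tested were called, all of them lower. That direction depended on the method, since 57 of the 245 genes called by DESeq2, 74 of the 199 called without the filter on low counts and 43 of the 155 called in 1 fit of all labelled libraries were higher. The call of IER2 was lost with total count scaling (-1.48), with the replicate block (-1.64) and without any 1 of the 4 libraries (-1.70 to -1.57), and that of IER3 was kept in all of these. The genes were chosen on these libraries, so the count is given as a description. Both treated libraries lay below both DMSO libraries for the same 2 genes, as for 14.9% of all genes, and for 32.5% they lay above. Their log2 fold changes were numbers 142 (IER2) and 143 (IER3) from the lowest of the 10083 genes, whose median was 0.03. IER5 was number 4115. At 0.1 µM edgeR called 0 of the 3. IER2 and IER3 were called there by DESeq2, and by edgeR without the filter on low counts and in 1 fit of all labelled libraries. The fold changes of IER2, IER3 and IER5 were numbers 363, 855 and 6532 from the lowest. EdgeR called 0% of all genes there (616 lower and 603 higher at an unadjusted p under 0.05), and DESeq2 called 183 genes. The 0.1 µM libraries lay below both DMSO libraries for IER2 and IER3, as for 15.6% of genes, and above them for IER5, as for 24.7%. Between the doses edgeR called 0 of the 3 and 0% of all genes (277 lower and 256 higher at an unadjusted p under 0.05), and DESeq2 called 7 genes, IER3 among them. EdgeR also called IER3 between the doses without the filter on low counts (-0.66). The groups of IER3 and IER5 did not overlap between doses, with 2.15 µM below 0.1 µM, as for 16.5% of genes, while 22.4% lay above.

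With intetumumab, IER3 was lower than with the isotype in every library. It stood at 3551, 3970 and 2353 counts per 1e6 at 5 µg/ml, at 3711, 3637 and 3577 at 1.5 µg/ml and at 5242, 5748 and 5699 with the isotype. Both dose groups lay below all isotype libraries and overlapped each other, with replicate 3 at 5 µg/ml the lowest of all 15 labelled libraries. The share of all T>C counts was 0.329% ± 0.0839 at 5 µg/ml, 0.364% ± 0.00671 at 1.5 µg/ml and 0.556% ± 0.0279 with the isotype (SD, n = 3 each). The log2 fold change was -0.80 (SE 0.15) at 5 µg/ml and -0.64 (SE 0.15) at 1.5 µg/ml. It was -0.60 at 5 µg/ml without replicate 3 of that group. Between 5 and 1.5 µg/ml it was -0.16 (SE 0.15), and 0.038 without that replicate, so the order of the doses rested on 1 library. By summed count IER3 was number 9 at 5 µg/ml, 9 at 1.5 µg/ml and 4 with the isotype.

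IER2 stood at 694, 667 and 508 counts per 1e6 at 5 µg/ml, at 831, 707 and 690 at 1.5 µg/ml and at 969, 852 and 907 with the isotype. All treated libraries lay below all isotype libraries, at 1.5 µg/ml by a narrow margin, and the 2 doses overlapped. The log2 fold change was -0.59 (SE 0.15) at 5 µg/ml, -0.32 (SE 0.14) at 1.5 µg/ml and -0.27 (SE 0.15) between the doses. Replicate 3 at 5 µg/ml was the lowest library for IER2 as well, and without it the log2 fold change was -0.46 against the isotype and -0.14 between the doses.

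IER5 lay in the other direction in both dose groups. It stood at 259.6, 252 and 239.9 counts per 1e6 at 5 µg/ml, at 280.0, 242 and 291 at 1.5 µg/ml and at 228, 225 and 227 with the isotype. Every treated library was above every isotype library. The isotype libraries spread by 0.780% (coefficient of variation, n = 3), which is below the 7.34% that counting alone gives. The log2 fold change was 0.10 (SE 0.15) at 5 µg/ml and 0.22 (SE 0.15) at 1.5 µg/ml, below its error at the higher dose. Between 5 and 1.5 µg/ml it was -0.12 (SE 0.15).

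**Figure D2:**
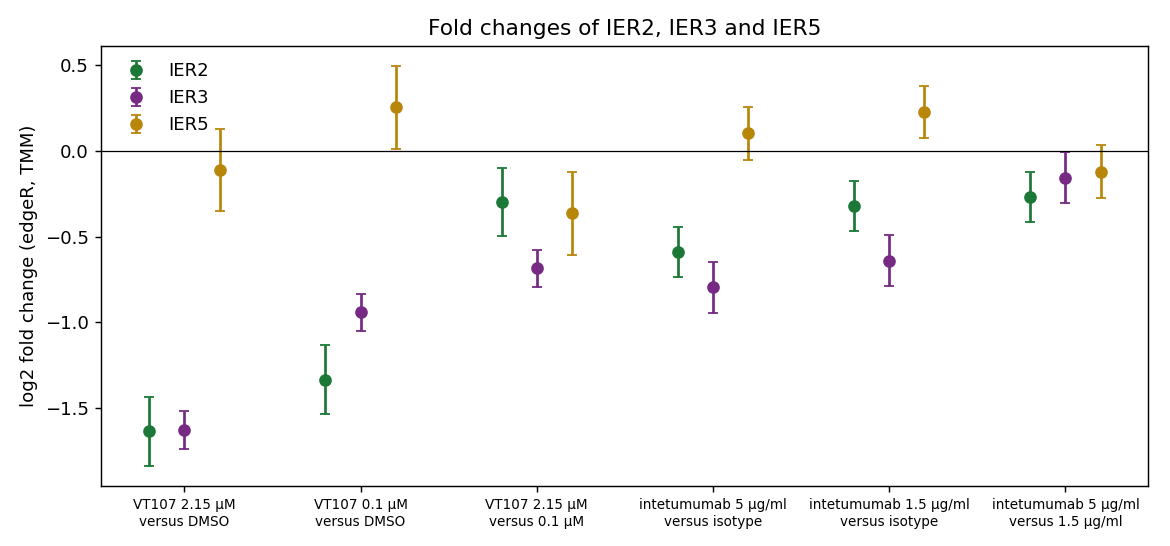
Log2 fold changes of IER2, IER3 and IER5 from edgeR's fits with TMM scaling (vertical axis) in 6 comparisons (horizontal axis). Points are estimates and bars are 1 SE. IER2 and IER3 lay below 0 in all 4 comparisons with a control, and IER5 lay between -0.11 and 0.25 in them, the -0.11 at VT107 2.15 µM being 0.04 with total count scaling.

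At 5 µg/ml against the isotype, edgeR called 0 of the 3 genes, where 0.0887% of the 9024 genes tested were called (0.0665% lower and 0.0222% higher), and DESeq2 called IER2 and IER3 among 100 genes. EdgeR called IER3 without the filter on low counts (-0.81), in 1 fit of all labelled libraries (-0.80) and without replicate 3 at 5 µg/ml (-0.60). All 5 µg/ml libraries lay below all isotype libraries for IER2 and IER3, as for 7.03% of genes, and above them for IER5, as for 9.13%. At 1.5 µg/ml the same 2 genes lay below, as did 6.12% of all genes, and IER5 lay above, as did 6.36%. EdgeR called 0 of the 3 and 0% of all genes at 1.5 µg/ml (277 lower and 217 higher at an unadjusted p under 0.05), and DESeq2 called 35 genes, IER3 among them. Among all 9024 fold changes at 5 µg/ml, IER3 was number 535 from the lowest, IER2 number 969 and IER5 number 5340, around a median of 0.0038. At 1.5 µg/ml they were numbers 604, 1745 and 6591. Between the doses edgeR called 0 of the 3 and 0.0111% of genes, and DESeq2 called 0 of the 3. The dose groups of all 3 genes overlapped, whereas 5.1% of genes lay below and 5.71% above at the higher dose. Both doses share the 3 isotype libraries.

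**Figure D3:**
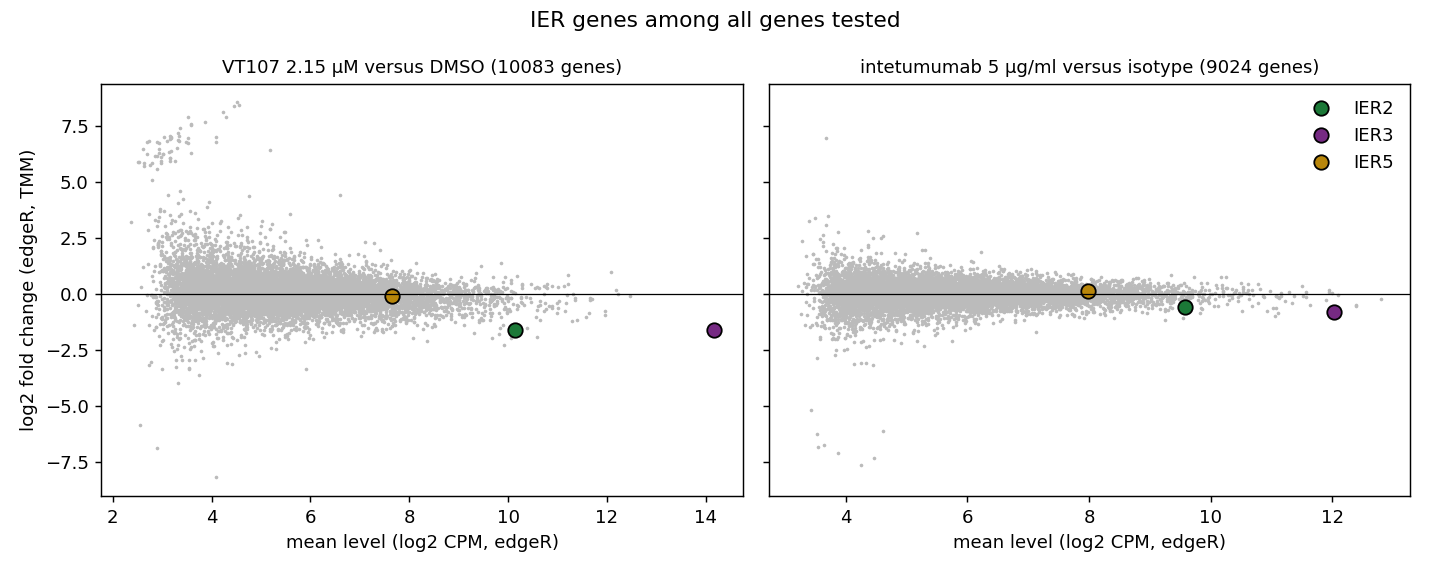
Log2 fold change (vertical axis, TMM scaling) against mean level (horizontal axis, log2 CPM) for all genes tested at VT107 2.15 µM against DMSO (left) and intetumumab 5 µg/ml against the isotype (right). Grey points are single genes and coloured points are IER2, IER3 and IER5. IER3 stands at the right edge on the left panel, with a log2 fold change of -1.63, and IER5 lies within the cloud on both.

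Set against each other in 1 fit of the 15 labelled libraries, the fold changes with VT107 2.15 µM and with intetumumab 5 µg/ml differed by -1.04 (SE 0.24) for IER2, -0.82 (SE 0.21) for IER3 and -0.21 (SE 0.25) for IER5 on the log2 scale, the negative sign meaning lower with VT107. EdgeR called 0 of these 3 differences, where 0.0782% of 10227 genes were called (0.0391% lower and 0.0391% higher), and DESeq2 called those of IER2 and IER3 among 104. The difference for IER3 was called without replicate 3 of intetumumab 5 µg/ml (-1.01). Since the genes were chosen on these libraries, these calls are a description.

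Each agent's fold change was taken against the control of its own experiment, and these controls differed in level. Whether that gap bears on the differences between agents was not tested. IER3 averaged 28151 ± 2041 counts per 1e6 in DMSO (SD, n = 2) and 5563 ± 279 with the isotype (SD, n = 3), which is 5.06 times as much. IER2 averaged 1858 ± 60.1 in DMSO and 909 ± 58.8 with the isotype, 2.04 times as much. IER5 was lower in DMSO, at 181 ± 30.6, than with the isotype, at 227 ± 1.77. The controls belong to separate experiments, so vehicle, antibody and experiment cannot be told apart. The mean of IER3 at VT107 2.15 µM was still 1.82 times that with the isotype, whereas the mean of IER2 at that dose was 73.2% of that with the isotype.

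Ordered from the lowest mean level, IER3 came in the sequence intetumumab 5 µg/ml, intetumumab 1.5 µg/ml, isotype, VT107 2.15 µM, VT107 0.1 µM and DMSO. Neighbours in this order did not overlap, with the exception of the 2 intetumumab doses. For IER2 the sequence was intetumumab 5 µg/ml, VT107 2.15 µM, intetumumab 1.5 µg/ml, VT107 0.1 µM, isotype and DMSO. Here all neighbours overlapped except the isotype and DMSO, so DMSO stood apart from the other groups. For IER5, from the highest, it was intetumumab 1.5 µg/ml, intetumumab 5 µg/ml, VT107 0.1 µM, isotype, VT107 2.15 µM and DMSO. Only the isotype and VT107 2.15 µM did not overlap among these neighbours. The share of all genes whose groups separate across experiments was not computed, so these separations are a description. Over the 15 libraries the highest level was 12.6 times the lowest for IER3, 3.74 times for IER2 and 1.82 times for IER5.

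Ratios of counts inside a library do not depend on its scaling. IER3 had 13.6 and 16.99 counts per IER2 count at VT107 2.15 µM, 18.1 and 22.4 at 0.1 µM and 14.1 and 16.3 in DMSO. At 2.15 µM the libraries overlapped those in DMSO, and at 0.1 µM both libraries lay above DMSO. With intetumumab the ratio was 5.12, 5.96 and 4.63 at 5 µg/ml, 4.47, 5.15 and 5.19 at 1.5 µg/ml and 5.41, 6.75 and 6.28 with the isotype. The 5 µg/ml libraries overlapped the isotype libraries, and those at 1.5 µg/ml lay below them by a narrow margin (5.19 against 5.41). Counting alone gives a coefficient of variation of 4.36% for IER2 at 1.5 µg/ml. Across experiments every VT107 experiment library had a ratio above every intetumumab experiment library. For ratios between other genes, how often libraries separate in these ways was not computed.

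The ratios to IER5 separated treated libraries from controls in both experiments. IER2 had 3.49 and 3.67 counts per IER5 count at VT107 2.15 µM, 3.88 and 2.91 at 0.1 µM and 11.9 and 8.94 in DMSO. It had 2.67, 2.65 and 2.12 at intetumumab 5 µg/ml, 2.97, 2.92 and 2.37 at 1.5 µg/ml and 4.24, 3.79 and 3.99 with the isotype. IER3 had 47.5 and 62.3 counts per IER5 count at VT107 2.15 µM, 70.4 and 65.1 at 0.1 µM and 167 and 146 in DMSO. It had 13.7, 15.8 and 9.81 at intetumumab 5 µg/ml, 13.3, 15 and 12.3 at 1.5 µg/ml and 23.0, 25.6 and 25.1 with the isotype. No treated library overlapped its own controls in either ratio, so IER2 and IER3 each stood lower relative to IER5 in the treated libraries whatever the scaling. How often ratios between other genes separate in this way was not computed. The genes were chosen on these libraries, so this is a description.

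**Figure D4:**
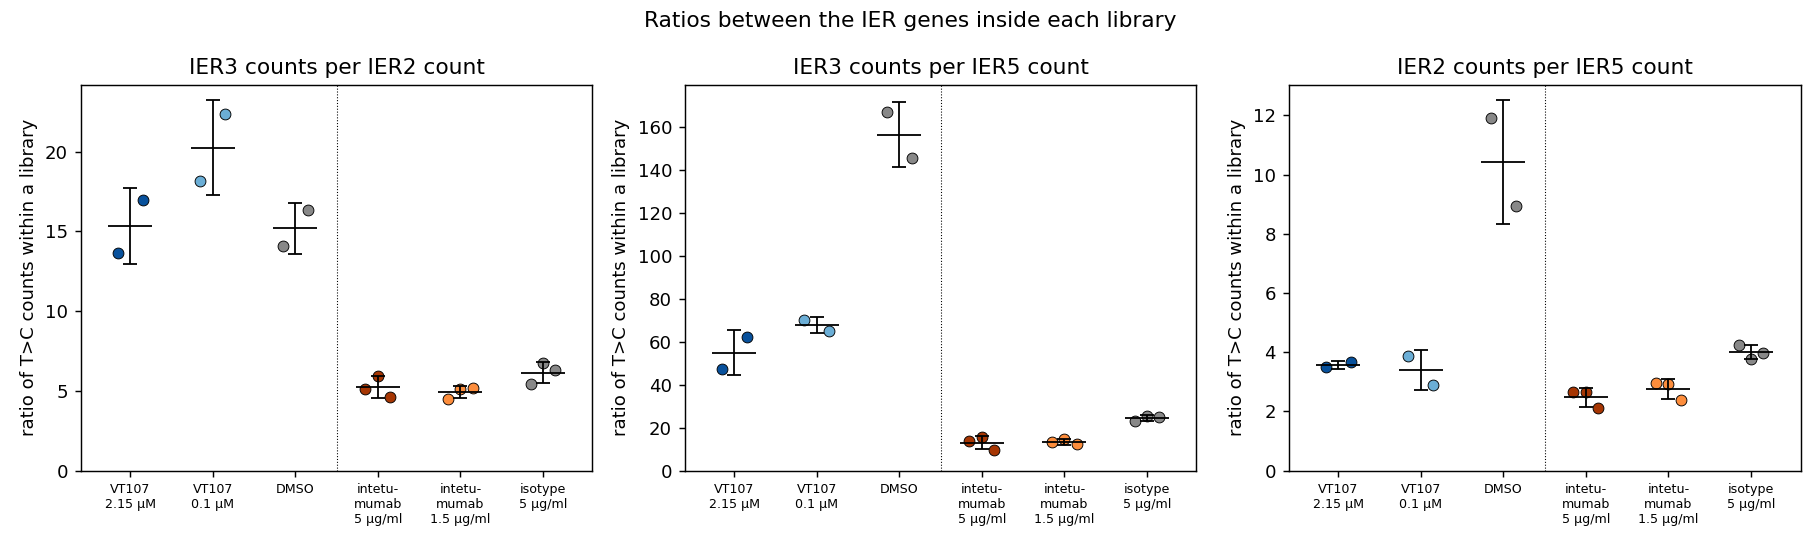
Counts of 1 IER gene per count of another inside each labelled library (vertical axes, linear from 0), by treatment. Points are libraries, and bars are the group mean and SD (n = 2 left of the dotted line, n = 3 right of it). IER2 per IER5 was 2.91 to 3.88 with VT107, against 8.94 and 11.9 in DMSO, while IER3 per IER2 at 2.15 µM overlapped DMSO.

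Genes with profiles most like these were found by the root mean square difference in log2 CPM over the 15 libraries, each gene centred on its mean within each experiment, among 4442 genes with a mean of at least 50 CPM. For IER2 the nearest was ENSG00000177606, at 0.12, where the median over all candidates was 0.60. The same gene was nearest to IER3, at 0.19 (median 0.62), and it had log2 fold changes of -1.47 at VT107 2.15 µM and -0.67 at intetumumab 5 µg/ml. IER2 and IER3 lay 0.21 apart by this measure, while IER5 lay 0.54 from IER2 and 0.55 from IER3. The gene nearest to IER5 was ENSG00000116685, at 0.12 (median 0.37), with log2 fold changes of -0.23 and -0.05. The table does not pair these IDs with names.

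In the libraries without thiouridine, T>C counts can arise from sequencing errors and variants, among other sources. Where they came from was not tested, and they are taken as the background for each gene. IER3 had 108 such counts in the VT107 experiment (95% Poisson interval 88.6 to 130) and 6 in the intetumumab experiment (2.20 to 13.1). These were 0.561% and 0.195% of its mean count in the labelled libraries of the same experiment. IER2 had 8 counts (3.45 to 15.8) and 2 counts (0.242 to 7.22), or 0.663% and 0.360% of its labelled mean. IER5 had 0 in both. By the one-sided limit for a count of 0, which is narrower than the intervals given for the other genes, that allows up to 3 counts, or 1.35% and 1.68% of its labelled mean. The total sequencing depth of these libraries is not known, so these percentages are not corrected for it. With 1 unlabelled library per experiment there is no replicate check.

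As a share of all counts in the unlabelled library, IER3 made up 1.01% in the VT107 experiment (Wilson 95% interval 0.837% to 1.22%) and 0.132% in the intetumumab experiment (0.0604% to 0.287%). It was number 4 and number 103 among the genes of those libraries. The share was thus higher in the unlabelled library of the VT107 experiment than in that of the intetumumab experiment, from 108 and 6 counts. With 1 library each, the cause of this was not tested. These counts are background and not a measure of newly made RNA, so their shares are not compared with those of the labelled libraries.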

How the data were processed

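Per the labels' protocols, RNA was alkylated for SLAM-seq and 3′-end libraries were prepared (QuantSeq FWD). The authors deposited raw T>C counts per gene. Per the series' design text these came from SLAM DUNK, and the submitters' processing notes name GRCh38. Version, annotation, T>C threshold and strand setting were not given in the sources used here. All value columns were matched to 1 sample each by its description, with 0 left unmatched. The genes described and all lists were chosen with earlier results of these data known.

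Counts were tested over all genes with edgeR 4.0.16 in R 4.3.3 (filterByExpr, minimum count 10, TMM on the full library totals, quasi-likelihood F-test, two-sided, Benjamini-Hochberg, called at an adjusted p under 0.05). The VT107 experiment (6 labelled libraries, 10083 genes) and the intetumumab experiment (9 labelled libraries, 9024 genes) were fitted apart, and the difference between agents in 1 fit of 15 libraries (10227 genes). An SE is the absolute log2 fold change over the square root of its F statistic. P-values behind the calls rest on the spread among these libraries alone (it may be technical), and intervals cover counting error only. The fit was also run on simulated counts, whose outcome is not given here and is no support for the calls. DESeq2 1.42.0, total count scaling, no filter on low counts, the replicate number as a block, 1 fit of all labelled libraries, subtraction of unlabelled counts and leaving out each library were alternatives. Log2 CPM used a prior count of 2. Named genes were IER2, IER3 and IER5, the genes nearest in profile and a list of other early response genes. That list, the cell type markers and the chromosomal neighbours were not analysed here, because IDs carry no names. Promoters came from RefSeq (GRCh38.p14), which held 2 of the 3.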

Additional observations from a re-analysis of the deposited data

How the results depend on the processing

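Of 243 fold changes of IER2, IER3 and IER5 recomputed under the alternatives, 237 moved by less than 1 SD between replicates and 6 by more. With total count scaling the log2 fold changes at VT107 2.15 µM were -1.48 for IER2 and -1.47 for IER3, and the median of all genes was 0.18 in place of 0.03. It was 0.12 in place of 0.0088 at 0.1 µM. Leaving out each library gave -1.62 to -1.10 for IER2 at VT107 0.1 µM, -0.53 to -0.0072 for IER2 between the VT107 doses, and -0.37 to -0.055 for the IER5 difference between agents. The genes were chosen on these same libraries, so how far their calls held is a description and no independent support. The call of IER3 at 2.15 µM held in all 10 alternatives, with log2 fold changes between -1.72 and -1.47. That of IER2 held in 4 of 10, and was lost with total count scaling, with the replicate block and without any 1 library of either group (-1.70 to -1.57 without 1 library). Subtracting unlabelled counts, or taking IER3 out of the total, moved all 30 levels by less than 1 SD.

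The number of genes called over the whole table, which sets the background, depended on the method. At VT107 2.15 µM it was 11, and 5 with total count scaling, 245 with DESeq2, 199 without the filter, 5 with the replicate block, 155 in 1 fit of all libraries and 1 to 26 without 1 library. At 0.1 µM it was 0, and 183, 171 and 72 with DESeq2, without the filter and in 1 fit. Between VT107 doses it was 0, and 7 with DESeq2 and 4 without the filter. At intetumumab 5 µg/ml it was 8, and 100, 13 and 15 with these 3 settings, 1 with the replicate block and 0 to 3 without 1 library (647 to 1106 genes at an unadjusted p under 0.05 where edgeR called 0). At 1.5 µg/ml it was 0, and 35 with DESeq2. Between intetumumab doses it was 1, and 4 with DESeq2, 0 with the replicate block or in 1 fit and 0 to 2 without 1 library (453 to 549 genes at an unadjusted p under 0.05 where edgeR called 0). For the difference between agents it was 8, and 104 with DESeq2, 42 without the filter, 4 with the replicate block and 1 to 25 without 1 library. The replicate block changed no other call named here. Same-numbered replicates did not deviate together (correlations of deviations from group means -0.015 to 0.0064 in the VT107 experiment and -0.024 to 0.065 in the intetumumab experiment), so the numbers were not taken to pair samples. The cause of these differences was not tested.

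With 2 libraries per VT107 group, fold changes of IER5 near its SE of 0.24 were not distinguished from the spread between libraries. The alternatives for other early response genes were not run, because their IDs carry no names.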
